A study of Homo sapiens with 20 samples.

Results

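The 9 genes described here encode the kinases that phosphorylate the translation factor eIF2alpha, the phosphatase subunits that reverse this mark, and transcription factors and a target further down the pathway. They are EIF2AK1 (HRI), EIF2AK2 (PKR), EIF2AK3 (PERK), EIF2AK4 (GCN2), ATF4, ATF5, PPP1R15A (GADD34), PPP1R15B (CReP) and GRB10. They were taken by symbol from 46425 gene symbols in the deposited tables, where 69 transcripts carried their names. The choice was made with earlier results of these data known. All 9 passed the filter on low counts in the test across 16784 genes. The question was which kinase transcripts were present as the targets of the pathway rose during erythroid differentiation.

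HUDEP-2 is an immortalized line of human erythroid progenitors from umbilical cord blood, kept as wild type here. Day 0 cells came from expansion medium with erythropoietin (EPO), stem cell factor (SCF), doxycycline (Dox) and, in the study's methods though not in the labels, dexamethasone. Cells of days 1 to 8 and of day 12 came from IMDM with EPO, insulin, holo-transferrin, human AB serum, heparin and L-glutamine, to which SCF was added up to day 6 and Dox up to day 8. Dox drives the genes that immortalize the line. Every later day thus differs from day 0 by the basal medium, its supplements and the glucocorticoid as well as by time. Days 7 and 8 also differ from earlier days by the loss of SCF, and day 12 by the loss of Dox. Every value comes from 1 cell line, and the study calls the libraries of days 0 and 8 biological replicates. The labels do not say whether the 2 libraries of a day came from separate cultures, so p-values measure the spread between these libraries. Of the 2 libraries, 1 was deposited in a table that spans the whole course and the other in a table for part of it, called the table of all days and the separate tables here. The separate tables held days 0 to 6, days 7 and 8, and day 12. A comparison of day 8 with day 0, or of day 12 with day 8, within them thus crosses from 1 table to another. Where 2 values are given for a day, the library of the table of all days comes first.

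In erythroid cells the kinases listen to different inputs. HRI is held inactive by heme and is the kinase best known in red cell precursors, where it matches globin synthesis to the heme supply. PKR binds double-stranded RNA, PERK senses unfolded protein in the endoplasmic reticulum and GCN2 senses uncharged tRNA when amino acids run short. Each phosphorylates the same serine of eIF2alpha, which lowers general translation and favours translation of a few mRNAs with upstream reading frames, ATF4, ATF5 and PPP1R15A among them. PPP1R15A and PPP1R15B bring protein phosphatase 1 to eIF2alpha, and GRB10 is an adaptor of receptor kinase signalling known as an ATF4 target in erythroid cells. RNA-seq measures transcripts, so neither kinase activity, eIF2alpha phosphorylation nor ATF4 protein was measured.

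The libraries held 52131713 to 70358198 counts each, and 3 counts correspond to at most 0.0575 CPM (counts scaled to the library total). The 9 genes were far above this in nearly every library, with the lowest counts being 86 and 142 for EIF2AK2 on day 12. Ribosomal RNA genes took 18.5% and 17.5% of the counts in the separate-table libraries of days 7 and 8 but 1.03% to 4.08% in the other 18. Globin genes took 0.819% and 0.859% of the counts on day 0, 8.49% and 9.85% on day 8 and 33.7% and 28.2% on day 12. The erythroid label held, since all 13 listed erythroid markers were called higher on days 4 to 6 than on day 0. Of the 8 megakaryocyte markers, PF4, PPBP and GP1BA were at 0 in 20 of 20 libraries. ITGA2B and TUBB1 passed 3 counts in 20 of 20 libraries and ITGB3 in 18. The 8 summed to 5.31 to 75.3 TPM (the deposited level scaled for transcript length and library), and ITGA2B alone reached 69.8 TPM. The summed level of 8 monocyte and macrophage markers lay between 2.35 and 32.0 TPM. The 8 mast cell and basophil markers, which include KIT of early progenitors, summed to 975 and 1574 TPM on day 0 and to 4.16 and 8.64 TPM on day 12. The part that fewer cells of a kind played in any result was not tested, and in these bulk samples fewer cells of a type and less RNA per cell cannot be told apart.

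HRI was the most abundant kinase transcript of the 4 in 20 of 20 libraries. EIF2AK1 measured 198 and 180 TPM on day 0, 212 and 213 on day 1, 209 and 233 on day 2, 222 and 236 on day 3, 213 and 259 on day 4, 252 and 257 on day 5, 232 and 280 on day 6, 314 and 337 on day 7, 335 and 343 on day 8, and 269 and 332 on day 12. Its level stepped up between days 6 and 7, and both libraries of day 8 lay above every library of days 0 to 6. EIF2AK4 came next in 20 of 20 libraries, with 29.4 and 20.6 TPM on day 0, 15.3 and 7.95 on day 8 and 3.23 and 4.49 on day 12. EIF2AK2 was the third in 17 libraries, with 19.2 and 14.5 TPM on day 0, 9.55 and 4.07 on day 8 and 0.158 and 0.316 on day 12. Of all 9 genes PKR had the steepest loss of transcript. EIF2AK3 was the lowest of the 4 in 17 libraries, with 6.27 and 5.87 TPM on day 0, 4.67 and 4.38 on day 8 and 0.746 and 1.46 on day 12. The plot of the 4 kinases by day shows their levels drawing apart.

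**Figure D1:**
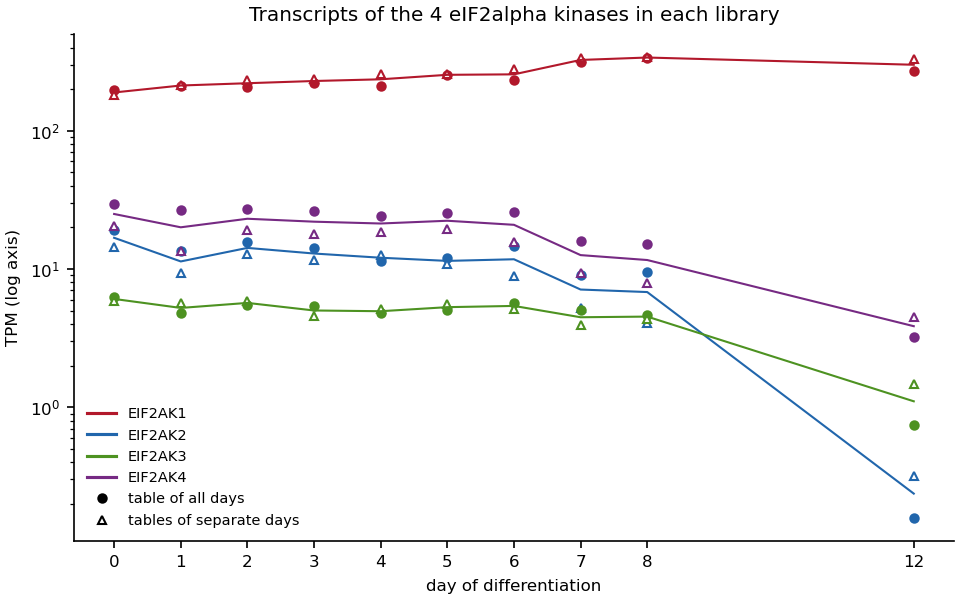
TPM of the 4 eIF2alpha kinase genes (log axis) against the day of differentiation, with a point for each library, filled circles for the table of all days, open triangles for the tables of separate days, and lines through the mean of the 2 libraries of a day. EIF2AK1 lies between 180 and 343 TPM in all 20 libraries, while EIF2AK2 falls from 19.2 and 14.5 TPM on day 0 to 0.158 and 0.316 TPM on day 12.

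The share of EIF2AK1 in the summed TPM of the 4 kinases was 78.3% and 81.5% on day 0, 82.6% and 88.2% on day 1, 91.9% and 95.4% on day 8 and 98.5% and 98.1% on day 12. Over the 20 libraries it ranged from 78.3% to 98.5% with a median of 87.6%, and the median was 87.0% when counts per kilobase of the longest transcript replaced TPM. The share of EIF2AK4 went from 11.6% and 9.30% on day 0 to 1.18% and 1.33% on day 12, that of EIF2AK2 from 7.56% and 6.55% to 0.058% and 0.0933%, and that of EIF2AK3 from 2.48% and 2.65% to 0.273% and 0.432%. The 2 libraries of a day differed by less than the distance between days 0 and 8, and day 12 overlapped with neither. These are shares of transcript level and not of kinase protein.

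Ratios within a library do not depend on how libraries are scaled to each other. EIF2AK1 exceeded EIF2AK4 by 6.74 and 8.76 times on day 0, 21.9 and 43.2 times on day 8, and 83.3 and 74.0 times on day 12. Its ratio to EIF2AK2 was 10.4 and 12.4 on day 0, 35.1 and 84.2 on day 8, and 1697 and 1052 on day 12. The latter rest on 86 and 142 counts of EIF2AK2. Its ratio to EIF2AK3 was 31.6 and 30.7 on day 0, 71.7 and 78.3 on day 8, and 361 and 227 on day 12. For all 3 ratios both libraries of day 8 lay above both of day 0, and both of day 12 lay above both of day 8. With 2 libraries a day an exact permutation test of a single ratio cannot go below p = 0.333 (two-sided), so these ratios are given without a test.

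**Figure D2:**
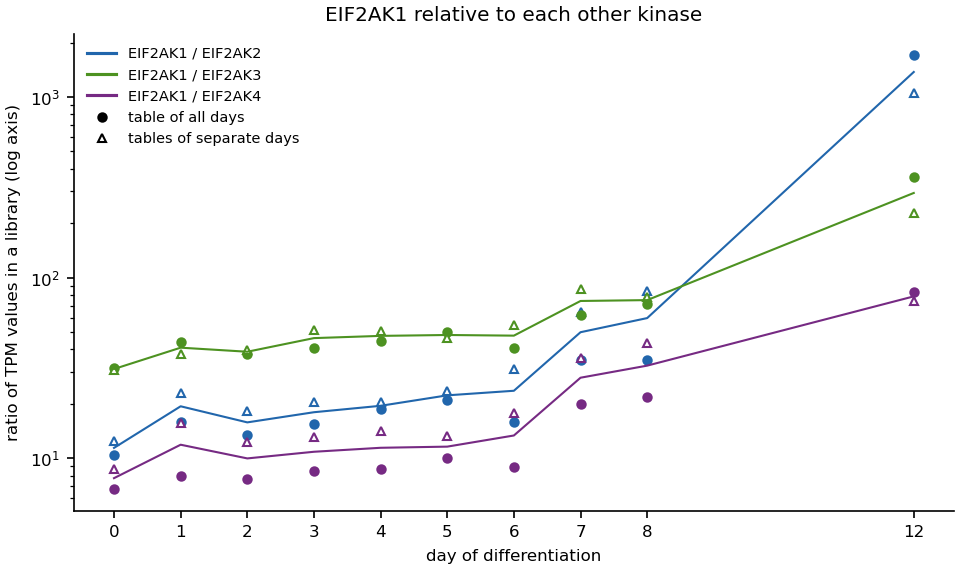
Ratio of the TPM of EIF2AK1 to that of EIF2AK2, EIF2AK3 and EIF2AK4 in the same library (log axis) against the day of differentiation, with symbols as in the plot of the 4 kinases and lines through the day means. The ratio to EIF2AK4 climbs from 6.74 and 8.76 on day 0 to 83.3 and 74.0 on day 12, and that to EIF2AK2 reaches 1697 and 1052.

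The transcription factors were abundant from the start. ATF4 measured 329 and 409 TPM on day 0, 377 and 455 on day 1, 380 and 452 on day 2, 438 and 541 on day 3, 481 and 648 on day 4, 517 and 719 on day 5, 572 and 742 on day 6, 618 and 603 on day 7, 593 and 678 on day 8, and 508 and 470 on day 12. All libraries from day 3 on lay above both of day 0, and the highest value fell on day 6. ATF5, a related factor whose mRNA is also translated preferentially under stress, measured 37.7 and 35.7 TPM on day 0, 61.6 and 46.9 on day 1, 58.7 and 111 on day 8, and 44.5 and 38.4 on day 12. The libraries of days 7 and 8 from the separate tables, with 104 and 111 TPM, stood above the other 18, which did not exceed 71.0 TPM. These are the same libraries that were rich in ribosomal RNA, and their part in the ATF5 level was not tested.

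The phosphatase subunits parted late in the course. PPP1R15A, the stress-induced subunit, measured 108 and 144 TPM on day 0, 120 and 190 on day 1, 132 and 204 on day 2, 160 and 247 on day 3, 176 and 256 on day 4, 184 and 267 on day 5, 185 and 321 on day 6, 286 and 325 on day 7, 283 and 324 on day 8, and 744 and 777 on day 12. It was higher in the library of the separate tables on 10 of 10 days. PPP1R15B, the subunit made without stress, measured 55.3 and 46.2 TPM on day 0, 70.4 and 65.9 on day 8, and 33.2 and 48.8 on day 12. The ratio of PPP1R15A to PPP1R15B was 1.96 and 3.12 on day 0, 4.01 and 4.91 on day 8, and 22.4 and 15.9 on day 12, so day 12 stood apart from all earlier days, where no library passed 5.95. The ratio of PPP1R15A to ATF4 stayed between 0.317 and 0.539 through day 8 and was 1.46 and 1.65 on day 12. GRB10 measured 39.8 and 38.0 TPM on day 0, 77.1 and 58.2 on day 6, 55.0 and 48.1 on day 8, and 33.9 and 31.8 on day 12, and was lower in the library of the separate tables on 10 of 10 days.

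In order of TPM on day 0, ATF4 was highest, followed by EIF2AK1, PPP1R15A, PPP1R15B, GRB10, ATF5, EIF2AK4, EIF2AK2 and EIF2AK3. Neighbours in this order did not overlap on that day. The gap was smaller than the spread between the 2 libraries of 1 of the pair for PPP1R15B and GRB10 (6.45 TPM), GRB10 and ATF5 (0.308 TPM), ATF5 and EIF2AK4 (6.27 TPM) and EIF2AK4 and EIF2AK2 (1.42 TPM). On day 12 PPP1R15A was the highest of the 9 and EIF2AK2 the lowest.

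Changes were tested with edgeR's quasi-likelihood test on counts, with the trimmed mean of M-values (TMM) to scale libraries and Benjamini-Hochberg adjustment over all genes, and are called at an adjusted p under 0.05. On day 1 none of the 9 genes was called against day 0, and none had an unadjusted p under 0.05. The exact test, DESeq2 and limma also called 0, and the test on the 4 libraries alone left 1 with an unadjusted p under 0.05. Of all genes 0.256% were called higher and 0.125% lower. The estimates for day 1 ran from a log2 fold change of -0.49 for EIF2AK2 (SE 0.30) to 0.64 for ATF5 (SE 0.38).

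On days 4 to 6, which the study assigns to basophilic erythroblasts, 3 of the 9 genes were higher than on day 0 and none was lower, with 7.36% of all genes called higher and 9.17% lower. ATF4 rose by a log2 fold change of 0.81 (SE 0.20, edgeR adjusted p = 0.0137), GRB10 by 0.83 (SE 0.18, edgeR adjusted p = 0.00718) and PPP1R15B by 0.34 (SE 0.11, edgeR adjusted p = 0.0469). EIF2AK1 (0.49, SE 0.16), PPP1R15A (1.03, SE 0.34) and ATF5 (0.92, SE 0.33) had positive estimates that did not pass, with edgeR adjusted p values of 0.0605, 0.0567 and 0.0735. No gene was called without the first or without the second library of day 0, and of 8 fits with a library left out PPP1R15B was called in 1. The exact test, DESeq2 and a fit with the set of tables as a block each called 6 genes higher. PPP1R15B was not called on TPM (0.19 on log2(TPM + 1)).

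On day 8, the polychromatic stage, 6 of the 9 genes were higher than on day 0 and none was lower, against 17.6% higher and 19.3% lower among all genes. EIF2AK1 rose 2.56-fold (log2 1.36, SE 0.20, edgeR adjusted p = 0.000198), from 323 and 324 normalized CPM to 705 and 953. ATF4 rose 2.57-fold (log2 1.36, SE 0.24, edgeR adjusted p = 0.000711), from 240 and 280 to 569 and 767 normalized CPM. PPP1R15A rose 3.66-fold (log2 1.87, SE 0.41, edgeR adjusted p = 0.00305) and PPP1R15B 2.04-fold (log2 1.03, SE 0.13, edgeR adjusted p = 7.72e-05). GRB10 rose 2.04-fold (log2 1.03, SE 0.21, edgeR adjusted p = 0.00242). In all 6 genes called, both libraries of day 8 were above both of day 0 on TPM and on normalized CPM. EIF2AK2 and EIF2AK4, which were not called, were below in the same way. The share of all genes that separated like this was not counted. ATF5 rose 3.91-fold (log2 1.97, SE 0.39, edgeR adjusted p = 0.00173), with a log2 difference of 1.13 within the table of all days and 2.49 within the separate tables, and 1.16 without the libraries rich in ribosomal RNA. All 6 stayed called without each of the 4 libraries in turn and without the libraries rich in ribosomal RNA. The other kinases did not pass, with log2 fold changes of -0.75 for EIF2AK2 (SE 0.30, edgeR adjusted p = 0.0702), -0.54 for EIF2AK4 (SE 0.33, edgeR adjusted p = 0.223) and 0.18 for EIF2AK3 (SE 0.20, edgeR adjusted p = 0.492), the last turning to -0.36 on log2(TPM + 1). EIF2AK2 was called lower with a block for the set of tables (-0.78, edgeR adjusted p = 0.0147), by the exact test, by DESeq2, by both limma fits on TPM, with at least 10 counts in every library and without the day 8 library of the table of all days (-1.29). EIF2AK4 was called lower with the block (-0.56, edgeR adjusted p = 0.0125) and by both limma fits (-1.09 on log2(TPM + 1), limma adjusted p = 0.028).

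The scale on which libraries are compared bears on these directions. TMM centres most genes, so that the median log2 fold change of all genes was 0 for day 8 against day 0, whereas TPM counts each gene against the whole library, including globin, and its median in limma on log2(TPM + 1) was -0.56 for day 8 against day 0 and -1.21 for day 12 against day 8. On that scale 14.1% of the genes called on day 8 were higher, against 47.7% on TMM, and 8.38% against 41.5% for day 12. For days 4 to 6 the shares were 27.8% and 44.5%. EIF2AK1, ATF4, ATF5 and PPP1R15A were called higher on day 8 on both scales, and PPP1R15B (0.42) and GRB10 (0.39) lost their call on TPM with adjusted p values from limma of up to 0.0843 and 0.155.

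On day 12, the orthochromatic and reticulocyte stage, 5 of the 9 genes were higher than on day 8 and 2 were lower on the TMM scale, against 23.7% and 33.4% of all genes. On TPM 1 was higher and 6 were lower. PPP1R15A was higher on both, by a log2 fold change of 2.77 on TMM (SE 0.42, edgeR adjusted p = 7.19e-05) and by at least 1.33 in the fits on TPM, and it lay above day 8 in both libraries on either scale. EIF2AK2 was lower on both, by a TMM log2 fold change of -3.38 (SE 0.34, edgeR adjusted p = 1.89e-06), and EIF2AK3 was lower with -0.64 (SE 0.20, edgeR adjusted p = 0.014), a call that ended with upper-quartile normalization (-0.46), with only the days compared (-0.58), without the separate-table library of day 8 (-0.56) and without the day 12 library of the table of all days (-0.39). EIF2AK1 (1.26 on TMM, -0.18 on TPM), ATF4 (1.00 and -0.38), GRB10 (0.80 and -0.63) and PPP1R15B (0.65 and -0.75) were called higher on TMM and had negative estimates on TPM, where GRB10 and PPP1R15B were called lower (limma adjusted p = 0.0199 and 0.0033), so their direction from day 8 to day 12 depends on the scale. GRB10 lost its TMM call without the day 12 library of the table of all days (0.51). ATF5 was at 0.31 (SE 0.38) and EIF2AK4 at -0.13 (SE 0.33), and neither passed on TMM, while on log2(TPM + 1) both were called lower, ATF5 with -0.95 and EIF2AK4 with -1.33 (limma adjusted p = 0.00783 and 0.00656). On TMM ATF5 turned on single libraries. It was called higher without the separate-table library of day 8 (1.13, edgeR adjusted p = 0.0202) and without the libraries rich in ribosomal RNA (1.12), and was at -0.24 without the other day 8 library and at -0.042 without the day 12 library of the table of all days.

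**Figure D3:**
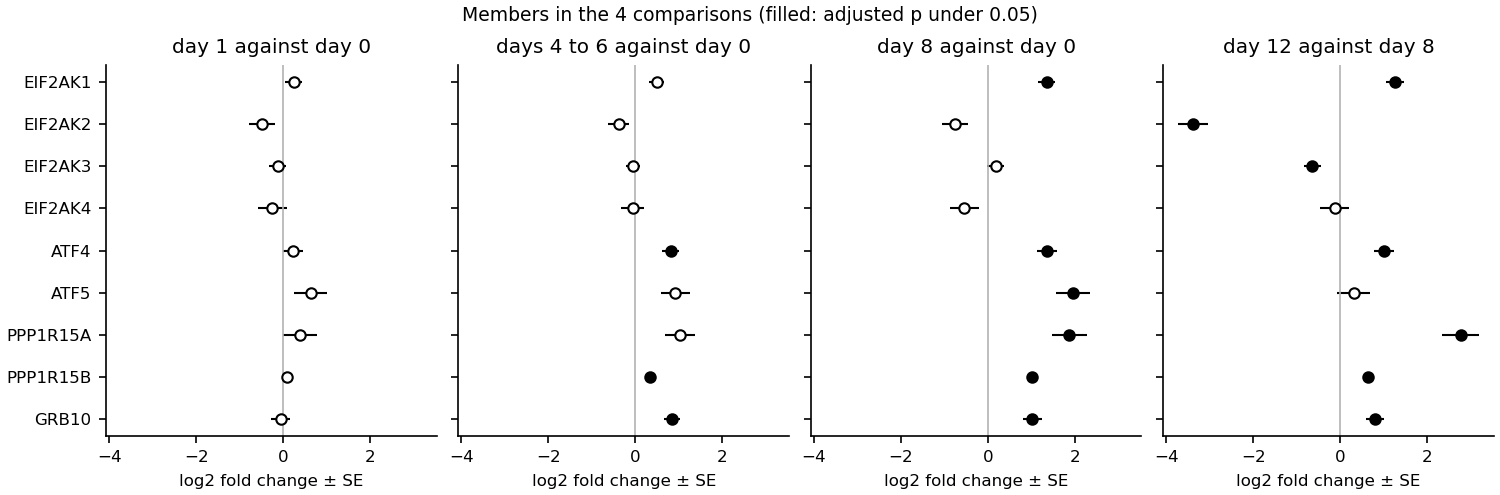
Log2 fold change with its SE from edgeR's quasi-likelihood fit of all 20 libraries on the TMM scale (horizontal axis) for the 9 genes (vertical axis) in 4 comparisons, filled where the adjusted p is under 0.05. No gene is filled on day 1, 3 are filled on days 4 to 6, 6 on day 8 and 7 for day 12 against day 8, where EIF2AK2 lies at -3.38 and PPP1R15A at 2.77.

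**Figure D4:**
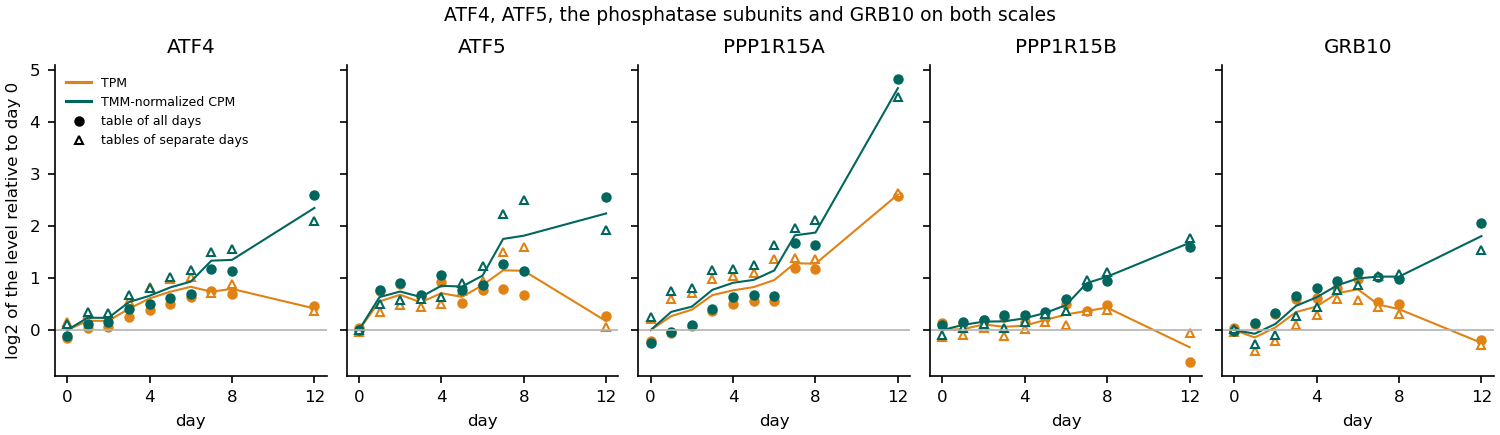
Log2 of the level relative to the day 0 mean for ATF4, ATF5, PPP1R15A, PPP1R15B and GRB10, on TPM (orange) and on TMM-normalized CPM (green), against the day, with filled circles for the table of all days, open triangles for the separate tables and lines through the day means. The scales stay close up to day 6 and part by day 12, where only PPP1R15A of these 5 is above its day 8 level on both.

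Transcripts of a gene were not used alike. ATF4 reads went mainly to NM_182810, with 67.3% to 91.0% of the gene's TPM, and NM_001675 held most of the rest. Up to 49.0% and 59.6% of ATF5 TPM in the separate-table libraries of days 7 and 8, and 46.6% in 1 library of day 5, went to XM_011526629, which took at most 8.0% in the other libraries. EIF2AK1 was divided among 3 transcripts, NM_014413 with 25.4% to 71.5% of the TPM, XM_024446718 with 5.89% to 56.2% and NM_001134335 with 18.4% to 31.7%. How reads shared by transcripts were divided is not given in the sources used here, so levels of single transcripts are uncertain and gene sums were tested.

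By position (hg38, coordinates of the deposited tables), EIF2AK1 lies at chr7:6022247-6059229, EIF2AK2 at chr2:37099210-37157065, EIF2AK3 at chr2:88556740-88627464 and EIF2AK4 at chr15:39934115-40035591. ATF4 lies at chr22:39514494-39522686, ATF5 at chr19:49928702-49933936, PPP1R15A at chr19:48872392-48876062, PPP1R15B at chr1:204398684-204412454 and GRB10 at chr7:50590068-50793453. In GENCODE 44 the EIF2AK1 span overlaps AIMP2 and ANKRD61 on the other strand, ATF5 overlaps IL4I1 and NUP62 on the other strand, EIF2AK2 overlaps GPATCH11 and PPP1R15B overlaps PPP1R15B-AS1. The longest ATF4 transcript begins inside MIEF1 on the same strand. The kit marks strand but the counting setting is not given in the sources used here, so a share of reads from these neighbours cannot be told apart.

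The motif TGATGNAA, the core that ATF4 binds together with C/EBP factors, was looked for on both strands (TTNCATCA on the other) in promoters from RefSeq (GRCh38.p14), taken as 250 bases before to 50 after each start. EIF2AK1 had no entry and was not searched. The other 8 genes had 15 promoters between them, and 1 of the 15 held the motif. Of 32 listed ATF4 targets 26 had 41 promoters and 9 of these held it (22.0%), against 1270 of 35116 promoters in all (3.62%). The promoters of ATF4, ATF5, PPP1R15A, GRB10, EIF2AK2, EIF2AK3 and EIF2AK4 had no match in this window. Sequences are shown for PPP1R15B, the only one of the 8 searched with a match, and for ATF3, ASNS, CHAC1 and SLC1A5, targets that had a match before a start and were called higher on both days 4 to 6 and day 8. They read 5′ to 3′ on the strand of the gene, with the motif in capitals.

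PPP1R15B (chr1:204411818-204412067, minus strand, the 250 bases before the start): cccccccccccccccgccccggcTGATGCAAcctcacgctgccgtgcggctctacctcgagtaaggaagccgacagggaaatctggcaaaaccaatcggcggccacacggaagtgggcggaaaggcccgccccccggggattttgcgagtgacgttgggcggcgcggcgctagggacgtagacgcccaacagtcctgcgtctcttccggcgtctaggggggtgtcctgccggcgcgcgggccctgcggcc
ATF3 (chr1:212565176-212565263, plus strand): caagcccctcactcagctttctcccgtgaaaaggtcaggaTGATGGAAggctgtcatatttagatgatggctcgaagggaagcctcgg
ASNS (chr7:97872429-97872516, minus strand): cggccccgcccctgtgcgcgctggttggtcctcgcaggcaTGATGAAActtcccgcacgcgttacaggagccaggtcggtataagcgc
CHAC1 (chr15:40953222-40953309, plus strand): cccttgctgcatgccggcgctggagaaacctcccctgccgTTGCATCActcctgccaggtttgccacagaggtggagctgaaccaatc
SLC1A5 (chr19:46784864-46784951, minus strand): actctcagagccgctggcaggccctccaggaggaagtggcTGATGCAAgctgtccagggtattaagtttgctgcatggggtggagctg

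The motif began 227 bases before the start in PPP1R15B, 191 in ATF3, 68 in ASNS, 209 in CHAC1 and 97 in SLC1A5, counted from the start of the promoter that held it. The other promoters searched for ATF3, ASNS and SLC1A5 held no match. A match is a description of the letters in the window, and binding of ATF4 was not measured.

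Among the listed ATF4 targets, which serve amino acid synthesis and import, redox balance and the stress response, none of the 30 tested was called on day 1. On days 4 to 6, 15 were called higher than on day 0 and none lower (7.36% and 9.17% of all genes), but 9 were higher without the day 0 library of the separate tables, and 3 were lower with the block for the set of tables and by DESeq2. On day 8, 24 were higher and 1 lower (17.6% and 19.3% of all genes), with a median log2 fold change of 2.14 over the 30. On log2(TPM + 1) the lower count was 4. From day 8 to day 12, 16 were higher and 7 lower on the TMM scale (23.7% and 33.4% of all genes), with a median of 1.03. On log2(TPM + 1) 8 were higher and 13 lower. The largest increases on day 8 were those of ATF3, PHGDH and TRIB3. ATF3, a transcription factor of the stress response, measured 0.509 and 0.972 TPM on day 0, 10.1 and 45.0 on day 8 and 47.2 and 69.0 on day 12 (log2 fold change 5.81 for day 8, SE 0.87).

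PHGDH, which opens serine synthesis, measured 0.812 and 0.133 TPM on day 0, 7.61 and 32.3 on day 8, and 1.82 and 2.21 on day 12, a rise by a log2 fold change of 5.59 and then a fall by 1.91. TRIB3, a pseudokinase that restrains ATF4, measured 4.18 and 2.70 TPM on day 0, 32.1 and 159 on day 8, and 558 and 412 on day 12 (log2 fold change 5.49 for day 8). All 3 were higher in the day 8 library rich in ribosomal RNA than in the other, and without that library 17 targets were called higher on day 8 in place of 24. Without the libraries rich in ribosomal RNA the log2 fold changes were 4.07 for ATF3, 3.99 for PHGDH and 3.71 for TRIB3, and all 3 were still called. PSPH, the last enzyme of serine synthesis, was the 1 target lower on day 8, with 28.7 and 24.2 TPM on day 0 and 9.91 and 4.94 on day 8 (log2 fold change -1.35).

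Genes linked to the kinases were counted by list, with no test between lists. Among all genes 7.36% were higher and 9.17% lower on days 4 to 6, and 17.6% and 19.3% on day 8. The lists do not measure the input of a kinase, and none was made for the amino acid supply that GCN2 senses. For HRI, 8 genes that respond to heme or oxidants were listed, of which 4 were higher on days 4 to 6, and 7 were higher and 1 lower on day 8. From day 8 to day 12 on TMM 7 were higher and none lower, against 23.7% and 33.4% of all genes. Heme holds HRI inactive, so a rise of these genes does not show whether HRI was active. HMOX1, which degrades heme, measured 6.03 and 8.32 TPM on day 0, 21.3 and 15.7 on day 1, 20.4 and 122 on day 8 and 507 and 582 on day 12 (log2 fold change 4.0 for day 8, SE 0.77). Without the libraries rich in ribosomal RNA its log2 fold change was 1.99 and still called. NQO1, a quinone reductase, was the lower 1 (-1.83). Among 9 genes whose products activate or restrain the kinases, 2 were lower on day 8 and none higher, a lower share near that of all genes. DELE1, which carries mitochondrial stress to HRI, fell by 0.97 on the log2 scale from 22.3 and 22.0 TPM on day 0 to 8.75 and 5.99 on day 8, and NCK1, an adaptor that counters the eIF2alpha kinases, fell by 0.60. GCN1, which activates GCN2, went from 122 and 85.2 TPM to 56.4 and 30.3, an estimate of -0.69 that did not pass.

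For PERK, 14 genes of the other arms of the unfolded protein response were listed. Of these, 1 was higher on days 4 to 6, a share near the 7.36% of all genes. On day 8, 5 were higher and 4 lower. DNAJB9, a chaperone partner of the endoplasmic reticulum, rose by a log2 fold change of 2.08 on day 8 and SDF2L1 fell by 1.65. Among all genes 17.6% were higher and 19.3% lower on day 8. On TMM the list thus held genes of both directions. From day 8 to day 12 on TMM 7 were higher and 3 lower, against 23.7% and 33.4% of all genes. The summed TPM of the list went from 1175 and 1085 on day 8 to 996 and 1006 on day 12. For PKR, 11 of 14 interferon-induced genes were tested, of which 1 was higher and 1 lower on day 8, IRF7 with 2.52 and IFIT1 with -2.27. IRF7 stood at 3.45 and 10.8 TPM and IFIT1 at 0.335 and 0.832 TPM on that day. Without the libraries rich in ribosomal RNA IRF7 lost its call (1.31), IFIT1 kept it (-3.25). From day 8 to day 12 on TMM 4 of the 11 were higher and none lower.

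Transcripts of the substrate eIF2 were present throughout, and its protein was not measured. Of the 8 subunits of eIF2 and of its exchange factor eIF2B, 1 was higher on day 8 (EIF2S2, log2 fold change 0.79). Another 2 were lower (EIF2S1, which carries the phosphorylated serine, -0.40, and EIF2B1, -0.90). EIF2B1 alone of these was still called without the libraries rich in ribosomal RNA. Among all genes 17.6% were higher and 19.3% lower on day 8, so the counts of these 8 lie near those shares. EIF2S1 measured 112 and 101 TPM on day 0, 64.3 and 44.1 on day 8 and 18.2 and 25.3 on day 12. Of the 3 catalytic subunits of protein phosphatase 1, PPP1CC was lower on day 8 (-0.38, not called without the libraries rich in ribosomal RNA) and PPP1CA (0.38) and PPP1CB (0.08) did not pass. PPP1CC went from 245 and 229 TPM on day 0 to 19.9 and 30.4 on day 12, when PPP1R15A was at its highest.

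The genes most like EIF2AK1 in pattern, by Pearson's r of log2 CPM over the 20 libraries among 8546 genes with a mean of at least 10 CPM, were MXI1 (r = 0.994, Spearman's rho = 0.992), STOM, OTUD5, CPEB4 and MACO1 (r = 0.993 each). Among those most like ATF4 were DMTN (r = 0.993, Spearman's rho = 0.986), GYPC (0.992), NPIPA5 (0.991) and NPIPA3 (0.987). NPIPA5 and NPIPA3 are near-identical copies whose counts may share reads. These correlations describe points that share a time course and a TMM scale that rises towards day 12 for many genes, and no test was made. The order depends on the measure, since by Spearman's rho 1 of the first 5 genes for EIF2AK1 and 0 of those for ATF4 remained in the first 5, with DMTN ranked 15.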

How the data were processed

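RNA-seq of 20 libraries (2 on each of 10 days) was analysed. Per the labels and the study's methods, libraries were made with the TruSeq Stranded mRNA kit, and per the submitters' processing notes reads were processed with Trimmomatic 0.38, HISAT2 2.1.0 (hg38) and StringTie 2.1.3b. The annotation release, strand setting and division of shared reads are not given in the sources used here. The authors deposited 4 tables of 170322 RefSeq transcripts, with read counts per transcript that were not normalized, and TPM, which the authors scaled by transcript length and library. Of the columns 40 were used, and 23, which hold FPKM or day 0 values beyond the 2 labelled samples, were not used here.

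Counts and TPM were summed by gene symbol. Genes were filtered with filterByExpr and tested with edgeR 4.0.16 (TMM, glmQLFit, glmQLFTest) in 1 fit of all 20 libraries with a coefficient for each day. For days 4 to 6 the mean of the 3 days was compared. P-values were adjusted over 16784 genes with a threshold of 0.05. The SE was obtained from the log2 fold change and its F statistic. On simulated data for day 8 against day 0 with 15763 genes, of which 200 were changed, the test recovered 40% of 2-fold and 97% of 4-fold changes, with 3.52% of calls false. The simulation gave every gene a squared coefficient of variation of 0.04 between libraries, a fixed value not estimated from these data. Its rates may therefore differ from those in the real comparison, where far more genes were called. Alternatives were edgeR's exact test, DESeq2 1.42.0, limma 3.58.1 on log2(TPM + 1) and log2(TPM + 0.1) for genes with a mean TPM of at least 1, other normalizations and filters, a block for the set of tables, and libraries left out. Leaving out the libraries rich in ribosomal RNA was chosen after seeing the data. The members and lists were chosen with earlier results of these data known. From the ATF4 targets the 3 called genes with the largest increase and up to 3 with the largest decrease on day 8 were named, and 1 of each from the other lists. ASNS, CHAC1 and SLC1A5 were named for their promoters. One gene among those most like ATF4 in pattern is not reported here.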

Additional observations from a re-analysis of the deposited data

How the results depend on the processing

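No paired analysis was possible because the deposited columns carry no replicate number, so that columns of different days could not be matched by number. A block for the set of tables was fitted instead, and its counts are given below. It treats the separate tables as 1 set and does not adjust for differences among them. Over the alternatives, the values of the 9 genes kept direction and side of the threshold (without a test, stayed within the spread) in 575 cases, gained a call in 34, lost one in 26, moved by more than the spread without a test in 20 and changed direction in 29. In the comparison of day 8 with day 0, none of the 6 called genes changed direction. The cause was not tested where a value below changed, except that fits with a library or day left out hold fewer samples. A day with 1 library left is assumed to vary like the others. In simulation the test recovered 40% of 2-fold changes, at a fixed spread not estimated from these data. Recovery for the 9 genes themselves was not measured, and a missing call does not show that a gene was unchanged.

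On day 1, 64 genes were called, but 445 with the set of tables as a block, 0 with only the days compared, 245 by the exact test, 425 by DESeq2, 127 by limma on log2(TPM + 1) and 8 to 50 with a library left out. ATF4 targets higher on day 1 numbered 1 with the block, the exact test, DESeq2, both limma fits and without the libraries rich in ribosomal RNA, and 1 was lower by DESeq2. On days 4 to 6, the genes of the pathway called higher numbered 6 with the block, the exact test and DESeq2, 5 in both limma fits and without the libraries rich in ribosomal RNA, and 0 to 4 with a library left out, the 0 for either day 0 library. Genes called numbered 4820 with the block and 957 to 2472 with a library left out, the fewest without the day 0 library of the separate tables. ATF4 targets lower numbered 3 with the block and DESeq2, 2 with the exact test and limma on log2(TPM + 1), 1 with at least 10 counts, only the days compared and limma on log2(TPM + 0.1), and 0 to 1 with a library left out, while those higher numbered 9 to 15.

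On day 8, members called lower numbered 1 with at least 10 counts, the exact test and DESeq2, 2 with the block and both limma fits, and 0 to 1 with a library left out, the 1 without the day 8 library of the table of all days. Genes called numbered 3666 with only the days compared, 3703 without the libraries rich in ribosomal RNA and 3570 to 5815 with a library left out. ATF4 targets lower numbered 4 in both limma fits. From day 8 to day 12, both limma fits called 1 gene of the 9 higher and 6 lower, and 1 was lower with upper-quartile normalization, only the days compared and without the libraries rich in ribosomal RNA, and 1 to 2 with a library left out. ATF4 targets higher numbered 8 and 7 and lower 13 and 13 in the limma fits on log2(TPM + 1) and log2(TPM + 0.1), and 4 to 8 were lower with a library left out.

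In log2 fold change, the direction from day 8 to day 12 turned in limma on log2(TPM + 1) and log2(TPM + 0.1) for EIF2AK1 (-0.18 and -0.18), ATF4 (-0.38 and -0.38), ATF5 (-0.95 and -0.97), PPP1R15B (-0.75 and -0.76) and GRB10 (-0.63 and -0.65), and from day 0 to day 8 for EIF2AK3 (-0.36 and -0.42). EIF2AK4 on day 12 was at -1.33 and -1.51 in the limma fits (called lower), 0.065 with upper-quartile normalization, 0.050 by DESeq2, 0.28 within the separate tables and -0.44 to 0.23 with a library left out. ATF5 on day 12 was at -0.56 within the separate tables and -0.24 to 1.13 with a library left out. EIF2AK4 on days 4 to 6 ranged from -0.26 to 0.17 with a library left out, and EIF2AK3 was at 0.0081 within the separate tables. On day 1, with a library left out, EIF2AK3 ranged from -0.30 to 0.042, EIF2AK4 from -0.74 to 0.12, PPP1R15A from -0.062 to 0.72 and GRB10 from -0.27 to 0.13, and EIF2AK3 was at 0.054 within the separate tables and GRB10 at 0.14 within the table of all days.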

Other observations

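Genes in this paragraph were chosen after their values were seen. GDF15, a secreted factor on the list of ATF4 targets, measured 5.38 and 32.5 TPM on day 0, 79.2 and 503 on day 8, and 3951 and 5073 on day 12, the highest level of any listed target in both day 12 libraries. DDIT3, a transcription factor that can drive cell death in prolonged stress, measured 7.42 and 12.6 TPM on day 0, 17.0 and 70.9 on day 8 and 221 and 210 on day 12. By the mean of log2 CPM on the TMM scale, 21 of the 30 tested targets were highest on day 12, 4 on day 8, 1 on day 6 and 4 on day 0. That scale rises towards day 12 for many genes, and the share of all genes highest on each day was not counted. On log2(TPM + 1) 8 targets were called higher and 13 lower from day 8 to day 12. HSPA5, the main chaperone of the endoplasmic reticulum and a target of the other arms of the unfolded protein response, measured 257 and 415 TPM on day 0, 85.1 and 103 on day 8 and 414 and 351 on day 12. It fell by 1.23 on the log2 scale from day 0 to day 8 and rose by 3.48 from day 8 to day 12 (edgeR adjusted p = 0.0298 and 1.38e-05). EIF2AK3, whose product HSPA5 holds inactive, had its lowest TPM on day 12 in both libraries. Without the libraries rich in ribosomal RNA neither GDF15, DDIT3 nor HSPA5 was called on day 8 against day 0 (log2 fold changes 2.51, 1.17 and -1.50).

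The 2 sets of libraries differed in a gene-specific way. PPP1R15A was higher in the separate tables on 10 of 10 days, EIF2AK1 on 9 and ATF4 on 8, while GRB10 was higher in the table of all days on 10, EIF2AK4 on 9 and EIF2AK2 and PPP1R15B on 8 each. What separates the 2 sets is not given in the sources used here.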
